A study of Homo sapiens with 6 samples.

Results

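The TFAP2 genes (TFAP2A, TFAP2B, TFAP2C, TFAP2D and TFAP2E) encode the AP-2 transcription factors, and their acetylation was read from the H3K27ac ChIP-seq of SU-CCS-1, a human clear cell sarcoma (CCS) cell line with the genotype EWSR1::ATF1 (EA1). The series held 3 H3K27ac libraries and 3 input libraries, input being sonicated chromatin sequenced without the antibody step, all from this 1 line and with no treatment named in the labels, and the peaks were given as 1 merged list without scores or values per replicate. A peak was assigned to a TFAP2 gene when it overlapped the gene body of GENCODE version 44 or lay within 100 kb of it, and it was a promoter peak when it lay within 3 kb of any start site of that gene. Of the 30784 peaks in the list, 21 (0.06822%) met this rule, with 15 at TFAP2A, 4 at TFAP2C, 2 at TFAP2E, 0 at TFAP2B and 0 at TFAP2D. Because the list has no replicate values, each count and width is a single measurement without an error, and no test between genes could be made. The depth behind a peak is unknown, so a gene missing from the list may still carry acetylation that did not pass the calling cutoff or the later filter.

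AP-2 proteins bind GC-rich palindromes as dimers through a conserved basic and helix-span-helix region. TFAP2A is required in the neural crest, the embryonic population that gives rise to melanocytes and craniofacial structures, and in melanocytes it acts on many of the same genes as MITF. TFAP2B is also active in neural crest and kidney, TFAP2C in trophectoderm and germ cells, TFAP2D in the developing central nervous system and TFAP2E in the olfactory bulb. H3K27ac marks active promoters and enhancers, so the peak list records which of these loci carried the mark above the calling cutoff in the CCS line.

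The reference promoters of 4 members are shown because they differ in CpG content, a feature in which genes with and without promoter peaks differed in this list. Each is the RefSeq sequence (GRCh38.p14, the same bases as hg38) that ends just before the first annotated base of the gene, 5′ to 3′ on the strand of the gene, with CpG dinucleotides in capitals. The positions are chr6:10419660-10419909 (minus strand) for the outermost TFAP2A start site, chr1:35573064-35573313 (plus strand) for TFAP2E, chr6:50713276-50713525 (plus strand) for TFAP2D and chr6:50818621-50818722 (plus strand) for TFAP2B.
TFAP2A promoter: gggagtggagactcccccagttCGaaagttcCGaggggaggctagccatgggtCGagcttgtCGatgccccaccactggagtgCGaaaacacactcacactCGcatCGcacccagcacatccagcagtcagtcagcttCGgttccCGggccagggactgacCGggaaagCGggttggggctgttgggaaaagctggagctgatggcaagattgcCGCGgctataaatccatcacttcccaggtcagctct
TFAP2E promoter: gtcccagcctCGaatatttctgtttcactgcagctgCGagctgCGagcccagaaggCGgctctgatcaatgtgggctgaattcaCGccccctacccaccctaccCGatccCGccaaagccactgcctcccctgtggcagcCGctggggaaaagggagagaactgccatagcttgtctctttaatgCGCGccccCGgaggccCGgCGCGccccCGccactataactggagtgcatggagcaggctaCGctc
TFAP2D promoter: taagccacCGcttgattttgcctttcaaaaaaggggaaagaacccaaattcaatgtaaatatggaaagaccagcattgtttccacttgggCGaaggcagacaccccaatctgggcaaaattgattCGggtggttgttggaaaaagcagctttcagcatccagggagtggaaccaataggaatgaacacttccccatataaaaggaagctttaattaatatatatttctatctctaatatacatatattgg
TFAP2B promoter: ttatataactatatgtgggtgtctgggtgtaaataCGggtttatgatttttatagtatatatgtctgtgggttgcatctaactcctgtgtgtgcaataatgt
The printed TFAP2E sequence held 16 CpG in 250 bases and the TFAP2A sequence held 13, against 3 for TFAP2D and 1 in the 102 bases for TFAP2B. Over the full RefSeq promoter windows of 300 bases, the counts were 20 for TFAP2E, 18 for the outermost TFAP2A site, 5 for TFAP2B and 3 for TFAP2D. The median over 35116 promoters was 14 CpG, with quartiles of 4 and 28. TFAP2B and TFAP2D therefore sat near the lower quartile and TFAP2A and TFAP2E above the median. None of the 4 start sites next to these printed sequences lay within 3 kb of a peak, although those of TFAP2A and TFAP2E were above the median in CpG. A second RefSeq promoter of TFAP2A, not printed, has its start site at chr6:10412391, inside a peak. It also held 18 CpG in 300 bases.

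A promoter peak was present at TFAP2A and TFAP2C and at neither TFAP2B, TFAP2D nor TFAP2E, which gives 2 of 5 members (40%) where 63.4% of 20015 protein-coding genes had one. The canonical start site, that of the transcript Ensembl selects as representative, lay inside a peak at the same 2 members, against 53.5% of coding genes. At least 1 peak within the gene body and its 100 kb flanks was found at 3 of 5 members, against 89.0% of coding genes. A peak in that window away from the start sites of all other genes was found at 2 members, TFAP2A with 6 such peaks and TFAP2C with 3, against 61.7% of coding genes. These shares rest on 5 genes and were not tested. TFAP2A held 71.43% of the family's peaks and 80.81% of the 34.55 kb that they covered.

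**Figure D1:**
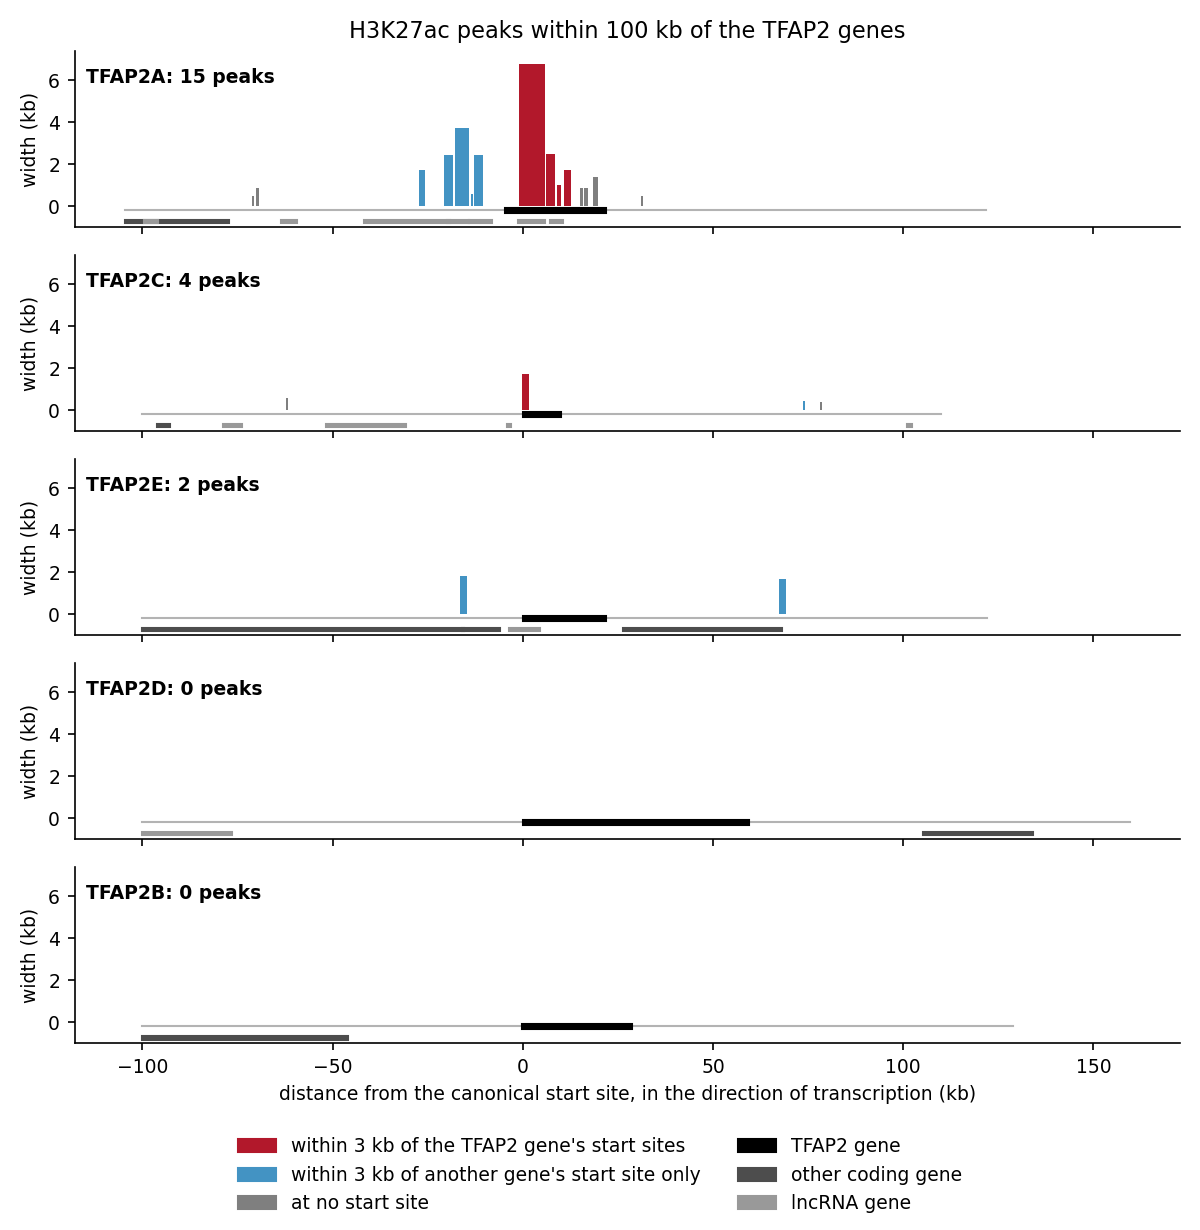
Peaks in the windows of the 5 TFAP2 genes, by distance from the canonical start site in kb (x axis) and peak width in kb (bar height). Red bars lie within 3 kb of a start site of the TFAP2 gene, blue bars only within 3 kb of a start site of another gene, and grey bars at no start site, with the genes drawn beneath. The 15 peaks at TFAP2A stand against 4, 2, 0 and 0 at the other members.

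TFAP2A (ENSG00000137203.15) lies on the minus strand at chr6:10393186-10419659. Its 15 peaks, numbered here from 1 to 15 along the direction of transcription, had widths of 500 to 6790 bases with a median of 1410 bases, compared with a median of 1060 bases over the whole list (quartiles 620 and 1760). Of the 15, 7 lay upstream of the gene, 7 overlapped it and 1 lay downstream. Among coding genes, 92.27% had fewer peaks in their window and 94.46% had a smaller summed peak width than the 27.92 kb at TFAP2A, where the median gene had 4 peaks (quartiles 2 and 9) and 5600 bases (quartiles 2100 and 12170). Peaks covered 57.26% of the TFAP2A gene body, against a median of 1.452%, and 97.77% of genes had a lower share. TFAP2A was thus high among coding genes by peak number, by summed width and by coverage of its body.

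**Figure D2:**
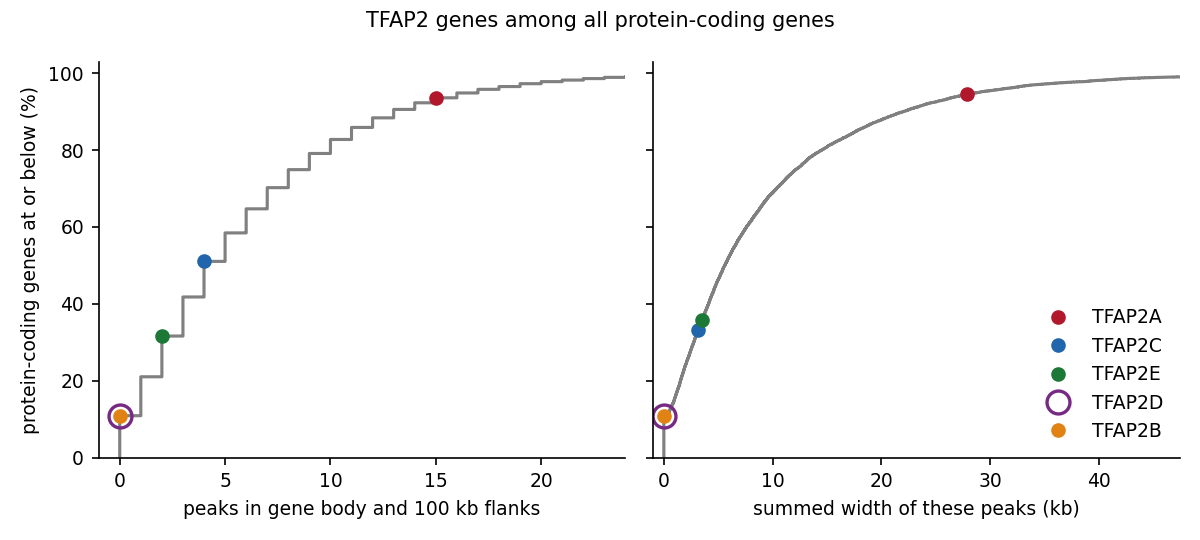
Share of protein-coding genes (y axis, percent) with at most the number of peaks (left) or the summed peak width in kb (right) on the x axis, in the gene body with 100 kb flanks. Coloured points mark the TFAP2 genes, with TFAP2D as an open ring around TFAP2B because both are at 0, and TFAP2A lies at 15 peaks and 27.92 kb. The x axis ends before the few genes with the highest values.

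Peak 8 was the widest at the locus. It covered chr6:10409201-10415990 (6790 bases), from 0.916 kb upstream of the canonical start site to 5.873 kb into the gene, and 99.0% of all peaks were narrower. Of the 18 annotated TFAP2A start sites, 11 lay inside it, among them that of the canonical transcript. It also held the start site of TFAP2A-AS1, a long non-coding RNA on the opposite strand whose body lay under peaks for 93.58% of its length. ChIP-seq of a histone mark carries no strand, so the share of this peak that belongs to either gene cannot be told apart. By the width of the peak at the canonical start site, TFAP2A ranked 146 of 20015 genes.

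Start sites of TFAP2A differed in their distance to the mark. In addition to the 11 sites inside peak 8, the site of TFAP2A-204 lay 377 bases from its nearest peak, that of TFAP2A-213 lay 200 bases away and that of TFAP2A-217 lay 1217 bases away. The 4 outermost start sites, including that of the protein-coding transcript TFAP2A-201 and the promoter sequence printed above, lay 3564 to 3669 bases from the nearest peak. They fell in a stretch of 9450 bases without a peak that separated peak 8 from peak 7. The peaks therefore marked the internal start sites and left the outermost ones outside the list.

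Peaks 9 to 14 followed through the rest of the gene. Peak 9 (2490 bases) lay within 3 kb of 4 TFAP2A start sites, and peak 10 (990 bases) and peak 11 (1740 bases) counted as promoter peaks through the start site of TFAP2A-204 alone. Peaks 9 and 10 overlapped TFAP2A-AS2, another antisense RNA. With peak 8, peaks 9 to 11 brought the summed promoter peak width to 12010 bases, which exceeded that of 99.13% of coding genes. This sum takes in peaks near any annotated start site. TFAP2A had 18 such sites, where the median coding gene had 5 (quartiles 2 and 10). Peak 12 (860 bases) was centred in an intron. Peak 13 (880 bases) was centred on a coding exon. Peak 14 (1410 bases) was centred beyond the end of the canonical transcript, in an intron of another one. Peak 15 (500 bases) lay 31.18 kb downstream of the canonical start site, at no annotated start site, with a GC content of 66.0%.

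Upstream of TFAP2A, peaks 3 to 7 lay within 3 kb of start sites of non-coding genes. Peak 7 (2440 bases) covered the start sites of the divergent long non-coding genes ENSG00000228478 and ENSG00000285759. Peak 6 (560 bases) lay within ENSG00000285759. Peak 5 (3730 bases) lay along LINC00518, and 95.42% of all peaks were narrower. Peak 4 (2460 bases) held the start sites of LINC00518 and of MIR5689HG, the host gene of the microRNA MIR5689, and peak 3 (1720 bases) lay in MIR5689HG. LINC00518, a long non-coding RNA known as a melanoma marker, lay under peaks for 92.54% of its body. Peaks 1 and 2 (500 and 850 bases) lay 69.33 to 71.12 kb upstream at no annotated start site. The next peak beyond the window, of 2620 bases at GCNT2, began 22 bases outside the 100 kb limit, while on the other side the next peak lay 291.9 kb beyond it.

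**Figure D3:**
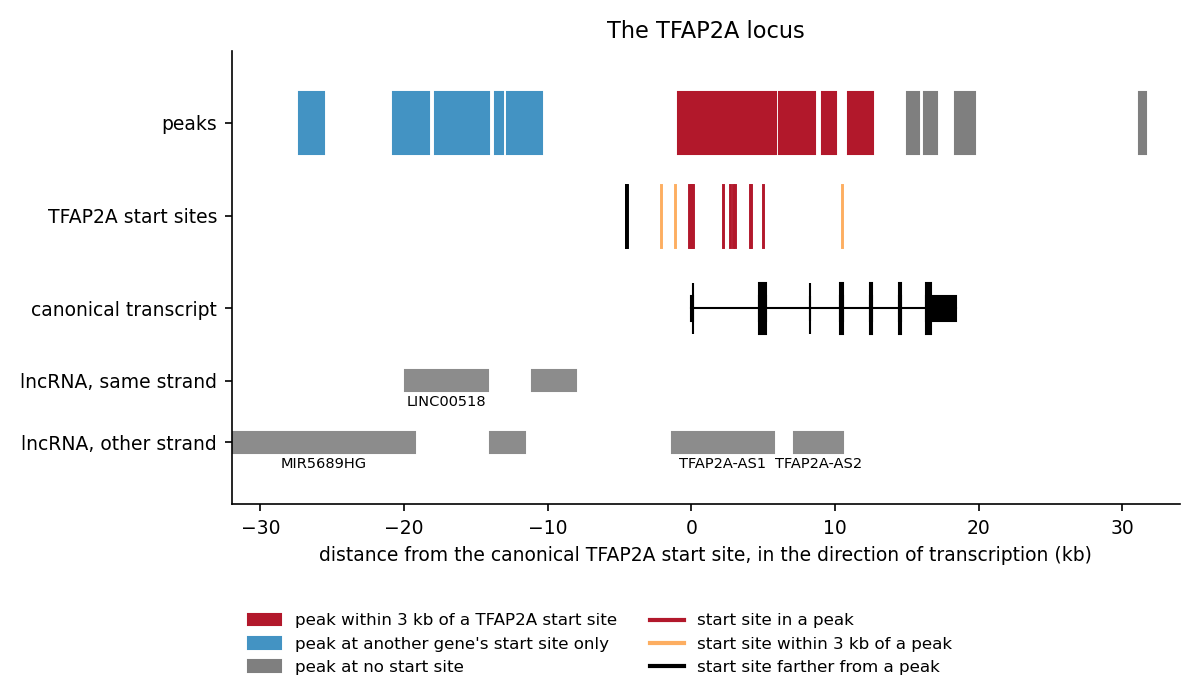
Peaks, TFAP2A start sites, the canonical transcript (tall boxes coding, low boxes untranslated) and long non-coding genes by distance from the canonical TFAP2A start site in kb. Colours of peaks and start sites are given in the key, and peaks 1 and 2 lie farther upstream than the range drawn. The 4 black start sites lie in the stretch of 9450 bases between the upstream and the internal peaks.

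Leaving out every peak at a start site of another gene kept 6 of the 15 TFAP2A peaks and 5000 bases of summed width, which ranked 2753 of 20015 genes. This removed all 4 promoter peaks of TFAP2A, since peaks 8 to 11 lay within 3 kb of start sites of TFAP2A-AS1 or TFAP2A-AS2. None of the 6 peaks kept was a promoter peak of TFAP2A. Most of the summed width at TFAP2A thus lay in peaks shared with the start sites of non-coding neighbours.

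The peaks at TFAP2A were closely spaced. Of the 14 gaps between them, 8 were at most 1 kb (220 to 820 bases), against 20.79% of the 30760 gaps in the list. The median gap was 675 bases against 17900 bases. Gaps that reach beyond the window were left out at TFAP2A only, so the difference partly follows from the peak number in the window. Joining peaks within 12.5 kb, the distance the study used for super enhancers (SEs), placed 13 of the 15 peaks in 1 region at chr6:10383391-10442380. This region spanned 58.99 kb, of which 26.57 kb (45.04%) lay under peaks. It was rank 65 of 17049 regions by summed peak width and was among the 879 regions past the point where the ranked curve reaches a slope of 1. Because the list has no reads, regions were ranked by width and not by the signal used in ROSE, and the region is not an SE call. Peaks 1 and 2 formed a separate region at rank 9857. The regions at TFAP2C ranked 7510, 13204 and 15109 and those at TFAP2E 7140 and 7808, and none of these was past the point.

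Sequences from the TFAP2A peaks are shown because they hold the binding motifs examined below, and they are given on the plus strand of hg38 with the motif in capitals. The motifs were GCCNNNGGC (the AP-2 palindrome), TGACGTCA (the full cAMP response element bound by ATF1), TGANNTCA (its looser form, which includes the full element), TGAGTCA (the AP-1 element) and CACGTG (the E-box bound by MITF), each on both strands. Peak 5 held an AP-1 element near an E-box at chr6:10429497-10429556. Peak 7 held AP-2 palindromes close together at chr6:10425937-10425993. Peak 8 held another such pair at chr6:10412885-10413002, directly upstream of the start site of TFAP2A-207. Peak 11 held a pair of TGANNTCA sequences at chr6:10403134-10403185.
Peak 5: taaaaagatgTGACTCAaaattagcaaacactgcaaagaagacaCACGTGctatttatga
Peak 7: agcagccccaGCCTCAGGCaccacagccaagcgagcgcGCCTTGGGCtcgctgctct
Peak 8: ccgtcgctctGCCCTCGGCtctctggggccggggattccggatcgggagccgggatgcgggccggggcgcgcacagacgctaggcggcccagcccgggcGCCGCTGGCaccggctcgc
Peak 11: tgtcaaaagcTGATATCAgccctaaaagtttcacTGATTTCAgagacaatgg
In the 21 TFAP2 peaks, GCCNNNGGC occurred 22 times, in 8 peaks. This was 0.6368 per kb against 0.8019 per kb over all peaks, and 23.81% of the central 400 bases held it against 26.38%. Peak 8 had 8 occurrences, peak 7 had 3, the promoter peak of TFAP2C had 3 and the upstream peak at TFAP2E had 4. The AP-2 palindrome was thus not more frequent per kb in the family's peaks than in the list. TGACGTCA did not occur in any of the 21 peaks, and it was rare in the list (0.0191 per kb, 0.8901% of central windows and 1.848% of promoters). The promoters here are the RefSeq windows of 300 bases, so their shares are not directly comparable with those of the central 400 bases. TGANNTCA occurred 21 times in 11 peaks (0.6078 per kb against 0.4663), and 28.57% of central windows held it against 16.64%. In 3 of these, in peaks 1, 4 and 5, the surrounding bases matched an Alu-type repeat. The remaining shares of promoters were 23.2% for GCCNNNGGC, 11.51% for TGANNTCA, 4.949% for TGAGTCA and 7.256% for CACGTG. With 21 peaks these shares rest on few occurrences, and a match is not a bound site.

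TGAGTCA occurred 7 times in 5 peaks, all at TFAP2A (0.2026 per kb against 0.1505). In central windows TGAGTCA was not more frequent, with 1 of 21 holding it (4.762%) against 5.311% over all peaks. The sites outside the peak 5 stretch above are shown with the bases around them on the plus strand, because most of them lay in the peaks upstream of the gene. They were at chr6:10441425-10441453 and chr6:10441743-10441771 in peak 3, chr6:10433996-10434024 in peak 4, chr6:10432344-10432372 in peak 5, chr6:10427615-10427643 in peak 7 and chr6:10406578-10406606 in peak 9.
Peak 3: aaaaacgtctgTGACTCAgagccacaagg
Peak 3: agaagtttaatTGACTCAgttccgtagac
Peak 4: ttggaggggctTGAGTCAagcaatggcgt
Peak 5: tctaagggaacTGAGTCAtacaggccttg
Peak 7: tctttctgactTGACTCAcccctttgaga
Peak 9: tggtcaaatcaTGAGTCAgaacaaagcta
Of the 7 sites, 6 lay in peaks 3, 4, 5 and 7 and 1 in peak 9, within the gene. A further site lay in the short gap between peaks 1 and 2, and 5.157% of the 5973 short gaps in the list held TGAGTCA in their centre. CACGTG occurred 4 times in 3 peaks (0.1158 per kb against 0.1918), with 2 sites in peak 5, 1 in peak 7 and 1 in the downstream peak at TFAP2E.

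TFAP2C (ENSG00000087510.7) lies on the plus strand at chr20:56629306-56639283 and had 4 peaks. Its promoter peak, at chr20:56629111-56630850 (1740 bases), ran from 0.195 kb upstream to 1.544 kb downstream of the canonical start site and held both annotated start sites of the gene. The width of this peak exceeded the summed promoter peak width of 67.56% of coding genes. The other peaks were narrow, with 560 bases at 61.6 kb upstream and 430 and 410 bases at 73.58 and 78.09 kb downstream, the former within 3 kb of the start of the pseudogene PTMAP6. Only 4.678% and 1.543% of all peaks were narrower than the last pair, and the narrowest peak in the list had 400 bases. The window thus held 3140 bases under peaks, a sum that 33.11% of genes fell below. TFAP2C stood higher by other measures. Peaks covered 15.48% of its gene body, and 88.04% of genes had a lower share. Without peaks at start sites of other genes its window held 2710 bases, and 74.4% of genes had less. In contrast to TFAP2A, the promoter of TFAP2C was marked without a cluster around it.

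TFAP2E (ENSG00000116819.9) lies on the plus strand at chr1:35573314-35595328 and had no peak in its body or at any of its 5 start sites. Both peaks in its window were promoter peaks of other genes. One of 1810 bases at chr1:35556721-35558530, 14.78 kb upstream, covered the start sites of KIAA0319L and NCDN, and one of 1680 bases at chr1:35640751-35642430, 67.44 kb downstream, covered that of PSMB2, a proteasome subunit gene. With peaks at start sites of other genes left out, TFAP2E had 0 peaks.

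TFAP2D (ENSG00000008197.5, chr6:50713526-50773033) and TFAP2B (ENSG00000008196.13, chr6:50818723-50847619) are neighbours on the plus strand, 45.69 kb apart, and had no peak in their windows, which overlap. Both lay in a stretch without peaks of 804.8 kb at chr6:50543971-51348800, in which they were the only protein-coding genes. Of the 30760 gaps in the list, 620 (2.016%) were at least as long. The distance from the canonical start site to the nearest peak was 169.6 kb for TFAP2D and 274.9 kb for TFAP2B, and 91.26% and 94.91% of coding genes had a nearer peak. The stretch contained no assembly gap.

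Base composition around the canonical start site differed between genes with and without promoter peaks. Over 2 kb centred on it, the median GC content was 57.67% in the 12691 genes with a promoter peak and 51.77% in the 7324 genes without, and the median ratio of observed to expected CpG was 0.6994 and 0.3308. TFAP2C had the highest values of the family (64.72% and 0.7764) and TFAP2A had 55.82% and 0.6677. TFAP2E, which had no promoter peak, had 63.02% and 0.693, within the range of the marked genes. TFAP2D had 41.53% and 0.4307, and TFAP2B had 43.48% and 0.6586. The unmarked members therefore did not share a composition.

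**Figure D4:**
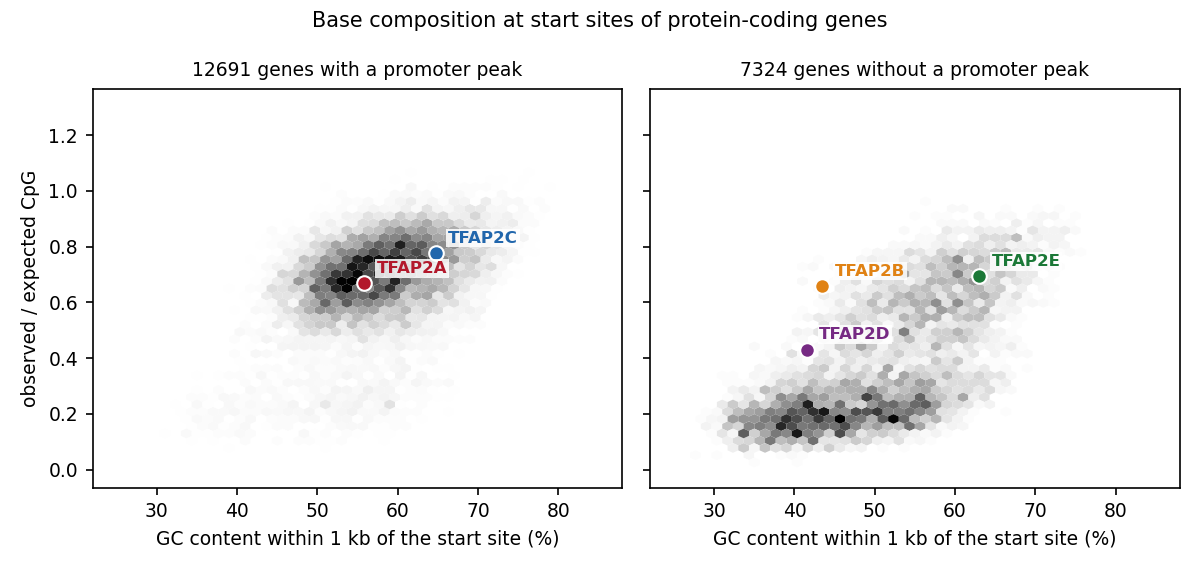
GC content within 1 kb of the canonical start site (x axis, percent) against the ratio of observed to expected CpG (y axis), for coding genes with a promoter peak (left) and without (right). Darker cells hold more genes, with the shading set separately in each panel, and coloured points mark the TFAP2 genes. TFAP2E lies at 63.02% and 0.693 among genes without a promoter peak.

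Genes around AP-2 biology were described from 5 lists. Of 12 cofactors and regulators of AP-2 proteins, 11 had a promoter peak (91.67%, against 63.4% of all coding genes), and the exception was CITED1. Widths given for these genes are sums over the promoter peaks of each gene, including any that also lie at start sites of other genes. CITED2 (3570 bases) and CITED4 (7260 bases), which bridge AP-2 to the acetyltransferases p300 and CBP, were among them, as were EP300 (2510 bases) and CREBBP (6000 bases) that encode those enzymes. KCTD1 (4830 bases) and KCTD15 (5610 bases), which restrain AP-2 activity, also had promoter peaks. The median summed promoter peak width of the list was 3140 bases, against 1090 bases over all coding genes. Most of the cofactor genes were thus marked, including ones of general function.

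Of 12 genes described as AP-2 targets, 9 had a promoter peak (75%, against 63.4% of all coding genes), and KIT, CDH1 and KRT14 did not. The count was 7 with the canonical transcript only, where 59.9% of coding genes had one. With the widest 50% of peaks it was 8, against 49.0% of coding genes. The highest summed promoter peak widths were 10190 bases over 3 peaks at VEGFA, an angiogenic growth factor gene, and 8120 bases in 1 peak at MCAM, which encodes an adhesion molecule of melanoma cells. The median of the list was 2415 bases. KIT, the receptor of melanocyte precursors, had no peak in its window. Of 15 neural crest transcription factor genes, 10 had a promoter peak (66.67%), close to the background. SOX10 had 28 peaks and 89640 bases in its window, rank 14 of all coding genes, and ETS1 had 16 peaks and 22450 bases. SNAI1 had 16 peaks and 23870 bases, with 1910 bases in its own promoter peak. These were the 3 highest of the list by window width, and TFAP2A, at 27920 bases, lay between SOX10 and SNAI1. Window values count all peaks in the gene body and its 100 kb flanks, including any at other genes. Promoter peak widths likewise include peaks shared with start sites of other genes. The list as a whole was lower, with a median of 2 peaks and 2240 bases in the window, below the coding medians of 4 peaks and 5600 bases. PAX3 had 1640 bases, TWIST1 2240 bases and MSX1 650 bases. PAX7, SOX9, ZIC1 and GBX2 had no peak in their windows, and FOXD3 had 5 peaks there but none at its promoter.

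Of 11 melanocytic markers, 9 had a promoter peak (81.82%, against 63.4% of all coding genes), with TYR and TYRP1 without one. Of 9 markers of epithelial, fibroblast and blood cells, 1 had one (11.11%), KRT8 with 640 bases. The melanocytic list had a median of 7 peaks and 11200 bases in the window, and its members ranged widely. Beside SOX10, the highest were OCA2 (38 peaks, 55730 bases), PMEL (15 peaks, 23380 bases), MITF (13 peaks, 21180 bases) and MC1R (14 peaks, 20760 bases). These window sums include any peaks at other genes. Promoter peaks alone summed to 10050 bases at OCA2, 12680 at PMEL, 4270 at MITF and 1810 at MC1R. Promoter peaks that also lay at start sites of other genes were not left out of these sums. Lower window sums were found at S100B (7600 bases), DCT (6860 bases), MLANA (6790 bases) and TYRP1 (2350 bases), and TYR had no peak in its window. The markers of other cell types had a median of 1 peak and 650 bases. The lists were small and the counts were not tested.

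**Figure D5:**
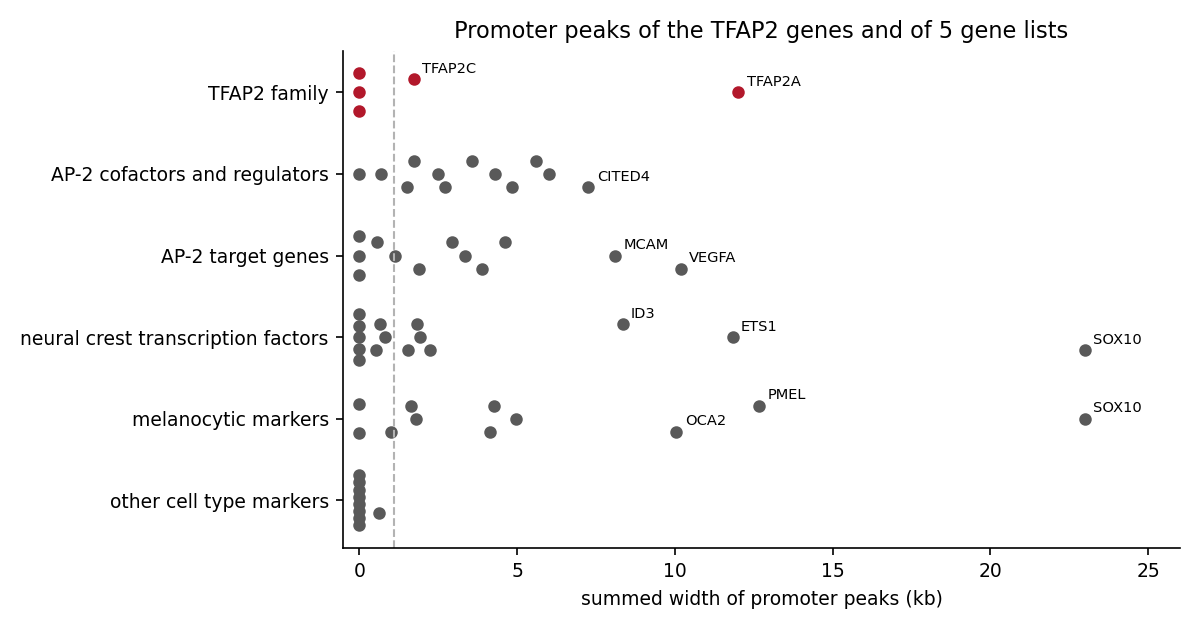
Summed width of promoter peaks in kb (x axis) of each gene in the TFAP2 family and 5 gene lists, 1 point a gene, with points spread vertically only for visibility. The dashed line is the median of all protein-coding genes, 1090 bases. TFAP2A (12010 bases) and TFAP2C (1740 bases) lie right of the line and the other 3 members at 0.

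The coding genes nearest to TFAP2A by summed peak width in the window were ABRAXAS2 and VARS1 (27970 bases each), STX4 and UBE2A (27920 bases, the same as TFAP2A), DLGAP5 (27910 bases) and CRELD1 (27900 bases). Their summed promoter peak widths ranged from 890 bases at DLGAP5 to 5680 bases at STX4, all below the 12010 bases of TFAP2A. Such sums can grow with the number of annotated start sites of a gene.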

How the data were processed

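H3K27ac ChIP-seq and input of SU-CCS-1 cells were analysed from the peak list that the authors deposited. Per the labels and the study's methods, the authors sonicated formaldehyde-fixed chromatin, aligned reads with BWA 0.7.10-r789 to hg38, called peaks with MACS2 2.2.6 in broad mode against input and filtered listed unreliable regions. The deposited list has 4 columns (chromosome, start, end and name), with no score, count or value per replicate. Whether reads or peak calls were merged is not given in the sources used here. Broad calling joins neighbouring stretches, so width depends on signal height and the joining rule. All coordinates are counted from 1.

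Peaks were intersected with GENCODE version 44 on hg38 (Python 3.11.15, numpy 2.4.6), after the interval and motif code was checked on simulated data. Distances were taken to the nearest base, peaks within 12.5 kb were stitched, and genes on the Y copies of regions shared with X were left out. Named genes were the members, the listed genes, genes at the members' peaks and the 3 coding genes ranked above and below TFAP2A. The members and lists were chosen with earlier results of these data known. No test was run, since there are no replicate values.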

Additional observations from a re-analysis of the deposited data

How the results depend on the processing

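Of 144 recomputed values, 92 were classed as the same and 52 as moved. The first class allowed sizeable changes. In it, the 21 window peaks of the family fell to 14 with 20 kb flanks and to 16 with 50 kb. Promoter peaks at TFAP2A remained under every promoter setting, and at TFAP2C under all except the widest 25% of peaks (used because the list has no score), where 1 member, 5381 coding genes, 6 neural crest genes and 0 markers of other cell types had one. With the widest 50% the last count was also 0. Window counts moved with the flank. TFAP2C had 1 peak with 20 kb or 50 kb flanks and TFAP2E 1 with 20 kb, while 200 kb flanks gave 39 peaks in all, 26 at TFAP2A, 2 at TFAP2D and 5 at TFAP2E. The widest 50% left 11 peaks in all, 8 at TFAP2A and 1 at TFAP2C, and the widest 25% left 6 in all, 5 at TFAP2A, 0 at TFAP2C and 1 at TFAP2E. Without peaks at start sites of other genes, 9 were left, 6 at TFAP2A and 0 at TFAP2E. TFAP2A ranked 446 by share of the gene body under peaks and 2753 without peaks at start sites of other genes. Its stitched region ranked 149 with 7 peaks at 5 kb stitching and 124 at 25 kb. It ranked 221 with 6 peaks once peaks lying wholly within 2.5 kb of a start site had been removed. That rule kept peak 8, which gave 6790 bases of the 12.93 kb under peaks in the region. The region was past the slope point each time. No paired analysis was possible because the list has no column per replicate. The depth behind each peak is unknown, so absence from the list is no measure of low acetylation.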
